A study of Xenopus tropicalis with 11 samples.

Results

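The places of highest TLE and p300 signal were compared in early gastrulae of Xenopus tropicalis, the western clawed frog. All embryos were of the Nigerian A strain at stage 10.5 and were fixed whole. The labels name no treatment or genotype, so the groups differ, as labelled, by antibody alone (both from Santa Cruz). Each antibody has 1 library, made from 2000 to 3000 embryos, and both libraries share 1 input control. The members are all peaks of both lists on the 10 assembled chromosomes, 346073 of the 939072 lines in the 7 peak lists of the series. The TLE list gave 166085 summits in 137474 distinct intervals, after 22744 lines on other sequences (12.0%) were left out. The p300 list gave 179988 summits in 151050 intervals, after 39506 lines (18.0%) were left out. An interval is a stretch called enriched. A summit is a base of locally highest signal within it, and an interval with several summits is listed once for each. Because the embryo was taken whole, a place held by both proteins may be held in different cells. With 1 library per antibody there is no replicate error, and no test between the libraries was made. The 95% intervals given are exact (Clopper-Pearson) binomial intervals and hold no error beyond that of counting. Peak lists do not give the read depth, so depth, antibody and binding cannot be told apart as sources of a difference in the number of peaks.

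TLE and p300 act on chromatin in opposite directions. TLE is the vertebrate Groucho corepressor, and p300 is a coactivator and histone acetyltransferase. Neither reads DNA sequence by itself. Both are brought to enhancers and promoters by DNA-bound factors, among them the homeodomain proteins of the Spemann-Mangold organizer, the dorsal signalling centre of the gastrula. p300 acetylates histone H3 at lysine 27, a modification (H3K27ac) found at active enhancers and promoters, while Groucho proteins are known to recruit histone deacetylases. H3K4me1 marks enhancers whether or not they are active.

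TLE and p300 summits often lay on nearly the same base. A p300 summit lay within 25 bp of 29.5% of TLE summits (95% interval 29.3 to 29.7%) and within 100 bp of 47.0% (46.7 to 47.2). Counted from p300, the corresponding shares were 27.2% and 44.1% (43.9 to 44.4). The median distance to the nearest summit of the other list was 129 bp from TLE and 173 bp from p300. For TLE, the lower quartile of distances was 20 bp and the upper quartile 2289 bp, and for p300 they were 22 bp and 2754 bp. Within 1 kb, 65.3% of TLE and 64.5% of p300 summits had a summit of the other list. No p300 summit lay within 10 kb of 6.29% of TLE summits, and no TLE summit lay within 10 kb of 8.70% of p300 summits. With a −log10 q (the peak caller's adjusted p) of at least 10 in both lists, the order of the shares within 100 bp turned, to 31.8% of 83670 TLE and 44.8% of 60214 p300 summits. Being within 100 bp holds from both sides, so the shares count much the same places (77992 TLE and 79464 p300 summits in the full lists). Which share is higher therefore follows which list is shorter.

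The close pairs were tight. Of the TLE and p300 summits that were each other's nearest, 75585 pairs lay within 100 bp. Their median separation was 17.0 bp, and 64.8% of them lay within 25 bp. p300 lay at the higher coordinate in 48.4% of pairs, at the lower coordinate in 49.9% and on the same base in 1.70%. The median separation was 17 bp on 9 of the 10 chromosomes and 18 bp on chromosome 5. It narrowed with strength, from 21 bp where the weaker member of the pair ranked in the lowest 25% of its own list by fold to 13 bp where both members ranked in the highest 10%. Fold is the enrichment of a peak over its local background, as the authors' peak caller estimated it, and was used only to rank and describe peaks within a list.

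Pairs of all distances show at what range the lists go together. Relative to the number of pairs per base at 20 to 50 kb, TLE to p300 pairs were 22.2-fold as dense under 50 bp and 5.90-fold at 50 to under 100 bp. They were 6.81-fold as dense at 100 to under 150 bp, above the class before it. A close pair with a further summit in the same interval can add pairs to this class, and its part was not tested. Within a list, summits under 50 bp apart were almost absent (7 pairs for TLE and 16 for p300). Summits of 1 list are local highs of 1 signal, so this near absence is not comparable with pairs between lists. Pairs at 100 to under 150 bp were 9.85-fold as dense for TLE and 8.12-fold for p300. Beyond that the lists differed. From 200 to under 500 bp, p300 summits were 4.15-fold as dense around other p300 summits, against 2.88-fold for TLE around TLE and 2.92-fold for p300 around TLE. At 500 to under 1000 bp these values were 2.08, 1.69 and 1.70, and at 1000 to under 2000 bp they were 1.27, 1.35 and 1.29. On this relative scale p300 summits were denser around each other than TLE summits were from 150 to 1000 bp, and not at 1000 to 2000 bp.

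**Figure D1:**
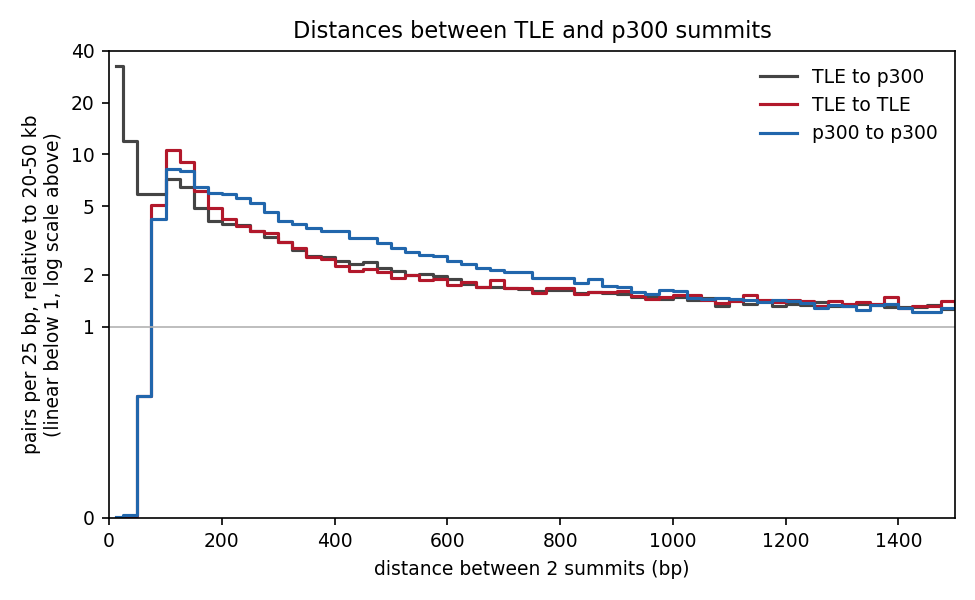
Number of summit pairs per 25 bp of distance, relative to the mean at 20 to 50 kb, for TLE to p300 (grey), TLE to TLE (red) and p300 to p300 (blue). The vertical axis is linear below 1 and logarithmic above, and no error is drawn because each antibody has 1 library. TLE to p300 pairs are densest under 50 bp, and p300 to p300 pairs lie above the others from 200 to 1000 bp.

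Ranked by fold, the strongest summits of the lists had opposite company. Among the 100 TLE summits of highest fold, 98 had a p300 summit within 100 bp (98.0%, 93.0 to 99.8). Among the 100 p300 summits of highest fold, 11 had a TLE summit within 100 bp (95% interval 5.62 to 18.8%), and 36 had none within 10 kb. The TLE share with p300 was 32.3% in the lowest 10% of TLE folds, 29.7% in the next and higher at each further step, to 80.0% (79.3 to 80.6) in the highest 10%. The p300 share with TLE went from 32.0% in the lowest 10% of p300 folds to 62.6% (61.9 to 63.3) in the next to highest, but was 55.8% (55.1 to 56.6) in the highest. Within that highest group it was lower at each step of rank. It was 60.6% at ranks over 5000 up to 20000, which reach past the highest 10%, then 47.9% at ranks over 1000 up to 5000 and 35.6% (32.4 to 38.8) at ranks over 100 up to 1000. For TLE the same ranks gave 75.3, 86.4 and 91.1%.

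The strong p300 summits without TLE were narrower than those with TLE and met the other mapped proteins and marks less often. Of the 1000 p300 summits of highest fold, 669 had no TLE summit within 100 bp, and they came from all 10 chromosomes. Their intervals had a median width of 173 bp, against 271 bp for the 331 with TLE. Otx2, a homeodomain activator of head genes, had a peak over 62.8% of the 669 summits. Lim1 (Lhx1), a LIM homeodomain activator of the organizer, had one over 7.03%, and Gsc (goosecoid), an organizer repressor, over 0.598%. H3K4me1 covered 9.42% of them and H3K27ac 1.49%. At the 331 summits with TLE the shares were 97.9% for Otx2, 64.4% for Lim1, 13.0% for Gsc, 53.5% for H3K4me1 and 20.5% for H3K27ac. Where an Otx2 peak was met, its median fold was 4.33 without TLE and 6.17 with TLE, against 3.64 over all 166593 Otx2 peaks on the chromosomes. The 82 TLE summits among the 1000 strongest that had no p300 summit within 100 bp also met Otx2, Lim1 and H3K27ac less often than the 918 with p300. Otx2 covered 87.8% and 99.3% of them, Lim1 1.22% and 30.4%, and H3K27ac none and 9.80%. Gsc, known to repress through Groucho proteins, covered 36.6% of the TLE summits without p300 and 30.6% of those with it. Among the first 1000 ranked by −log10 q this order turned, to 26.3% of 19 and 46.0% of 981. With 82 and 19 TLE summits in the groups without p300, the order of the Gsc shares is not settled. Ranked by −log10 q in place of fold, TLE accompanied 18 of the first 100 p300 summits, 54.7% of the first 1000 and 64.2% of the first 5000. The last 2 shares lie above the 44.1% over all p300 summits. Ranked by fold, the shares were 33.1% of the first 1000 and 44.9% of the first 5000. Of the ranks compared, the share with TLE was thus low for the first 100 and 1000 by fold, and for the first 100 by −log10 q. By −log10 q, p300 accompanied 98.1% of the first 1000 TLE summits. Whether the strong p300 summits without TLE reflect p300, its antibody or the input cannot be told apart from peak lists.

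**Figure D2:**
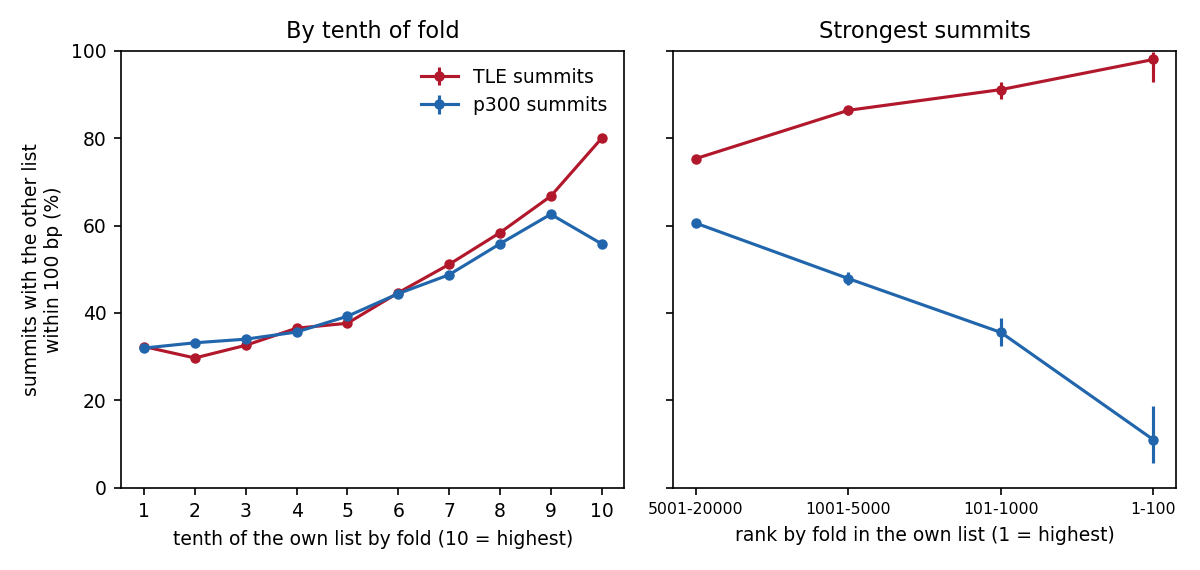
Percent of TLE summits (red) with a p300 summit within 100 bp and of p300 summits (blue) with a TLE summit within 100 bp, in 10 equal groups of rising fold (left) and for the strongest summits by rank (right), with 95% exact binomial bars. Both curves climb with fold, but p300 turns down in the group of highest fold. Among the 100 summits of highest fold, 98 of TLE and 11 of p300 have the other protein.

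Among close pairs, strength was only loosely shared. Spearman's rho between TLE and p300 fold was 0.290 over the 75585 pairs within 100 bp, and 0.267 to 0.309 on single chromosomes. These points share 2 libraries and 1 input, and the value is a description across places. Of the paired TLE summits in the highest 10% of TLE folds, 19.8% had a partner in the highest 10% of p300 folds. Over all these pairs, 12.9% had a p300 member in the highest 10%. Counted from p300, 26.5% had a TLE partner in the highest 10%, against 17.2% over all these pairs.

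The pairs at which both lists were strongest lay on several chromosomes. The first pair by the rule stated with the methods lay on chromosome 7, with a TLE summit at 89101935 (fold 40.6, the highest of the list on chromosomes) and a p300 summit 1 bp away at 89101936 (fold 34.4). Peaks of all 5 other lists covered it. The second lay at 50277711 on chromosome 7, with folds of 28.3 for TLE and 22.8 for p300 and 27 bp between the summits. The others had TLE summits at 127632515 on chromosome 5, 8973653 on chromosome 2 and 307153 on chromosome 8, with TLE folds of 30.5, 28.2 and 29.0 and p300 folds of 22.7, 22.5 and 21.6. In these 3 pairs the summits were 25, 10 and 5 bp apart. Otx2, H3K4me1 and H3K27ac were present at all 5 TLE summits, Lim1 at 4 and Gsc at 3. These 5 do not stand for strong shared places in general. Of the 1000 TLE summits of highest fold, 918 had p300 within 100 bp. Otx2 covered 99.3% of the 918, H3K4me1 42.9%, Gsc 30.6%, Lim1 30.4% and H3K27ac 9.80%. No sequence is shown, because the genome build of the lists is not named and positions could not be tied to genes.

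Away from the common summits, p300 lay in acetylated chromatin more often than TLE did. Over all summits, 17.2% (17.03 to 17.4) of p300 and 9.51% (9.37 to 9.65) of TLE lay inside an H3K27ac domain. Counted by distinct intervals that met a domain, the shares were closer, 21.2% of p300 and 16.9% of TLE. Within 25 bp of each other, TLE summits lay inside an H3K27ac domain in 15.8% of cases and p300 summits in 15.9%. These values describe the same pairs from both sides. At over 250 and up to 500 bp from the nearest summit of the other list, 42.3% (41.4 to 43.3) of 10708 p300 summits lay in an H3K27ac domain, against 14.2% (13.4 to 15.0) of 6933 TLE summits. For H3K4me1 the values were 54.9% (53.9 to 55.8) and 32.9% (31.8 to 34.0). These p300 summits were weak for their list, with a median fold of 3.97 against 4.68 over all p300 summits. With a −log10 q of at least 10 the H3K27ac share was 45.8% of 2158 p300 summits and 11.9% of 2401 TLE summits.

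Summits far from the other list kept this difference. Beyond 20 kb, H3K27ac covered 16.6% (15.6 to 17.6) of 5318 p300 summits and 2.12% (1.63 to 2.72) of 2872 TLE summits. Lim1 covered 15.3% and 0.696% of them, against 15.2% and 10.3% over all p300 and TLE summits. H3K4me1 covered 14.8% and 6.79% of them, against 28.5% and 23.0% over all. Otx2 had the opposite order, over 29.6% (28.4 to 30.9) of the p300 summits and 34.1% (32.4 to 35.9) of the TLE summits. For Gsc, the shares were 1.77% and 1.64%, with overlapping intervals. Otx2 covered 84.9% of TLE summits with p300 within 25 bp, 31.8% of those with p300 over 500 and up to 1000 bp away, and 31.7 to 34.1% in the classes beyond. For p300 summits the values at these distances were 84.8% and 31.5%.

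**Figure D3:**
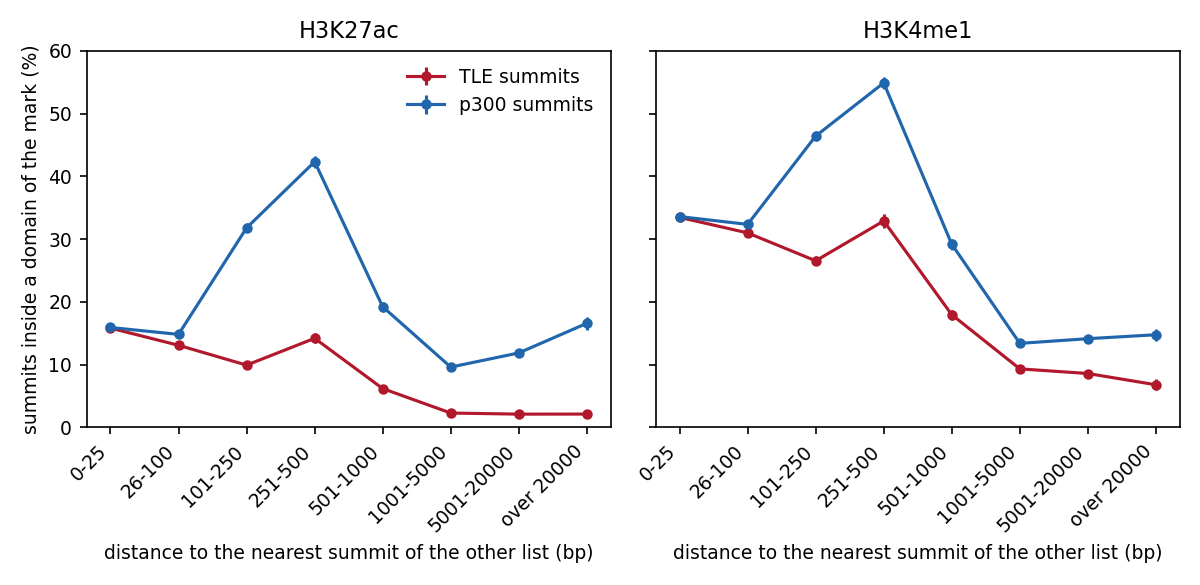
Percent of TLE (red) and p300 (blue) summits inside an H3K27ac domain (left) or an H3K4me1 domain (right), by distance to the nearest summit of the other list, with 95% exact binomial bars. Both marks peak for p300 at 250 to 500 bp, at 42.3% and 54.9%, where TLE is at 14.2% and 32.9%.

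The intervals differed in width and in number of summits. TLE intervals had a median width of 170 bp (quartiles 110 and 270) and p300 intervals one of 131 bp (94 and 207). The narrowest were 78 bp for TLE, shared by 8976 intervals, and 75 bp for p300, shared by 13006, so each list has a floor of its own. At least 2 summits were found in 17.4% (17.2 to 17.6) of TLE intervals and 14.1% (13.9 to 14.2) of p300 intervals. At least 3 were found in 2.67% and 3.55%. For a given width, p300 intervals held more summits. At over 300 and up to 400 bp, 60.1% (59.05 to 61.1) of 8909 p300 intervals had at least 2 summits, against 49.7% (48.95 to 50.5) of 16226 TLE intervals. At over 400 and up to 600 bp these shares were 87.9% and 74.5%. Successive summits within an interval were a median of 134 bp apart for TLE and 141 bp for p300.

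Several p300 summits in an interval went with H3K27ac. An H3K27ac domain was met by 72.9% of the p300 intervals with 3 or more summits and by 16.7% of those with 1. For TLE intervals the shares were 38.6% and 15.4%. Intervals with 3 or more summits were also wider, with medians of 572 bp for p300 and 529 bp for TLE, against 119 and 146 bp with 1 summit. Wide intervals have more length with which to meet a domain. Summit numbers were not compared at equal width, so number and width cannot be told apart here. The lists were compared at a given width. H3K27ac was met by 68.9% of p300 intervals of over 400 and up to 600 bp and 33.8% of TLE intervals of that width, and by 12.5% and 11.7% of those of 100 bp or less.

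Where TLE and p300 intervals overlapped, the balance between them differed with H3K27ac. Overlapping intervals were joined into 67945 shared places, of which 58.7% held 1 summit of each protein. Classed by the TLE summit of highest fold, 8468 places lay in an H3K27ac domain. In these, p300 had more summits in 31.7% (30.7 to 32.7) and TLE had more in 7.49% (6.94 to 8.07). In the 59477 places outside, p300 had more in 15.3% (15.0 to 15.6) and TLE had more in 15.8% (15.5 to 16.1). Some of these places still reach into a domain. In the 48087 places where neither interval met one, p300 had more in 10.7% and TLE had more in 16.5%. Where the place was made of 1 interval of each list, p300 was the wider in 67.1% (66.0 to 68.2) of 7270 places in the domains and in 31.8% (31.4 to 32.2) of 56129 places outside. Median widths were 172 bp for TLE and 237 bp for p300 inside, and 237 bp and 181 bp outside. The place was classed by a single base, so a long place had no more bases with which to meet a domain. Classed by the p300 summit instead, p300 was the wider in 67.1% and 31.6%. Classed by whether either interval met a domain, p300 was the wider in 59.6% of these places with H3K27ac and 26.9% without. Median TLE width was then 229 bp in both, and median p300 width 292 and 163 bp. The narrower TLE intervals inside were thus seen only with classing by a summit, while p300 was wider inside by each classing.

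The share of places with more p300 summits was higher in the domains on all 10 chromosomes and in all 7 classes of TLE width. In the domains p300 had more summits in 25.7% (chromosome 10) to 34.5% (chromosome 3) of places, and TLE had more in 6.78% to 8.55%. Outside, the ranges were 14.6 to 17.1% and 14.1 to 16.5%. With the TLE interval at over 200 and up to 300 bp, the p300 interval had a median of 261 bp in the domains and 185 bp outside. With the TLE interval at over 400 and up to 600 bp, these medians were 446.5 and 329 bp. How often p300 was the wider fell with TLE width. At over 200 and up to 300 bp it was the wider in 55.7% of places in the domains and 22.9% outside. At over 300 and up to 400 bp these shares were 48.6% and 14.1%, and at over 600 bp 31.6% and 5.52%.

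**Figure D4:**
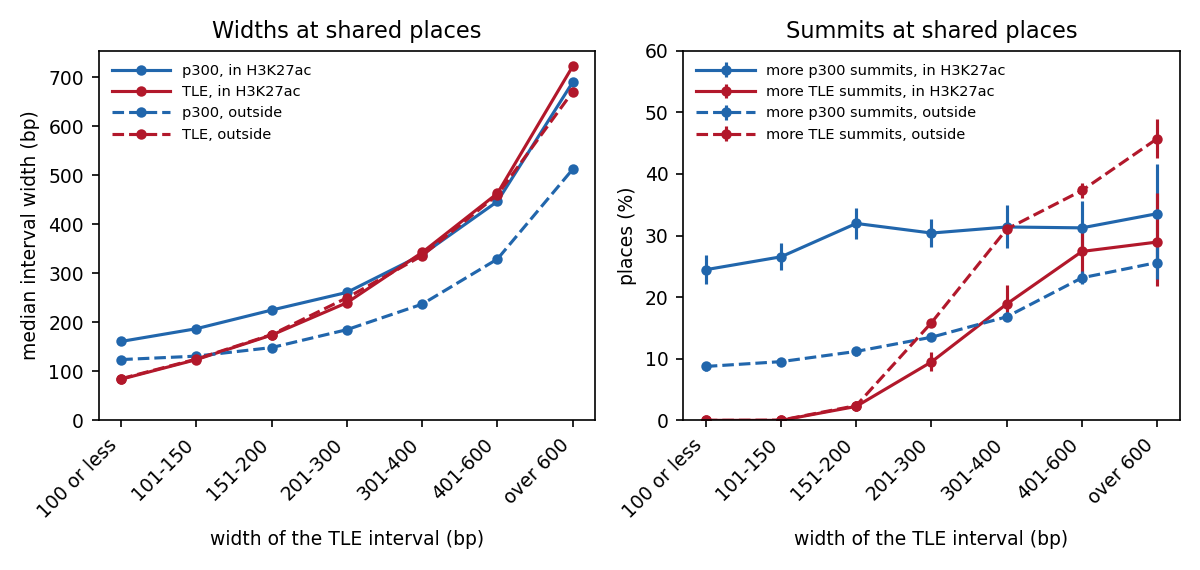
Places of 1 TLE and 1 p300 interval, by width of the TLE interval and by whether the best TLE summit lay in an H3K27ac domain (solid) or outside (dashed). Left, median widths in bp of the TLE (red) and p300 (blue) intervals. Right, percent of places with more p300 (blue) or more TLE (red) summits, with 95% exact binomial bars. At every TLE width the p300 interval is wider in the domains than outside.

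Acetylated pairs also had p300 summits on their flanks. Around the 11238 TLE and p300 pairs within 100 bp that lay in an H3K27ac domain, 87.1% (86.5 to 87.7) had a further p300 summit over 100 and up to 1000 bp away and 75.9% (75.1 to 76.7) a further TLE summit. The mean numbers were 2.32 for p300 and 1.62 for TLE. p300 flanked both sides in 38.6% of these pairs and TLE in 24.7%. Around the 47280 pairs outside domains of both marks, a further p300 summit was found for 49.1% (48.7 to 49.6) and a further TLE summit for 52.3% (51.9 to 52.8), with means of 0.842 and 0.817.

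Along the chromosomes, summits of both lists had similar median spacing when all were counted. The median distance from a summit to the next of its own list was 2958 bp for TLE and 2848 bp for p300. With 1 summit per interval the medians were 4571 and 4411 bp, and with a −log10 q of at least 10 they were 5533 and 8795 bp. The density of summits ranged from 120 per Mb on chromosomes 7 and 9 to 149.6 on chromosome 10 for TLE, and from 131 on chromosome 7 to 179.5 on chromosome 10 for p300. The longest stretch without a summit was 307727 bp for TLE, on chromosome 4, and 253054 bp for p300, on chromosome 2.

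Intervals that met none of the other list were followed at short range mostly by intervals of their own kind. TLE made up 45.8% of these unshared intervals and p300 54.2%. Where the next unshared interval lay within 500 bp, it was of the same kind for 69.4% (68.1 to 70.6) of TLE intervals and 80.7% (79.9 to 81.6) of p300 intervals. At over 500 and up to 1000 bp these shares were 56.8% and 65.7%. They were 50.7% and 53.7% at over 1000 and up to 5000 bp. Where the next unshared interval lay over 5000 and up to 20000 bp away, they were 49.7% (49.1 to 50.3) and 57.1% (56.5 to 57.6). Unbroken runs of at least 10 unshared intervals numbered 176 for TLE and 539 for p300. Neighbours of different kinds close enough to overlap were left out by definition, which favours the same kind at short range. How much of the short-range shares, or of the runs, is due to this was not tested.

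In windows of 100 kb the lists rose and fell together. Over 12723 windows with a peak of either list, Spearman's rho between the counts of TLE and p300 intervals was 0.754, and 0.738 to 0.777 on single chromosomes. Windows share the libraries, the input and whatever makes a stretch easy to map, so rho is a description only. The median window held 9 TLE and 11 p300 intervals. The balance is given as the TLE share, which is TLE intervals as a percent of TLE and p300 intervals together. It was 47.6% over all windows. In the 10889 windows with at least 10 intervals, its median was 47.8% and its quartiles 40.7 and 54.3%. TLE outnumbered p300 more than 2 to 1 in 350 of these windows and p300 outnumbered TLE more than 2 to 1 in 1014. The windows held few intervals, with means of 12.1 for TLE and 13.3 for p300, so counting alone spreads the share. The interquartile range of 13.5 percentage points was 8.45 in windows of 500 kb. How much of the spread, or of the windows beyond 2 to 1, is due to counting was not tested.

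Towards both ends of every chromosome the balance moved from TLE to p300. Within 5 Mb of an end, the TLE share was 38.3% (37.7 to 38.9), against 48.5% (48.3 to 48.7) further inside. At all 20 ends it lay below the value inside the same chromosome. The ends ranged from 31.9% (29.0 to 34.8) at the start of chromosome 3 to 43.6% (40.8 to 46.4) at the end of chromosome 4, and the inner parts from 46.6% (chromosome 9) to 49.5% (chromosome 8), so these groups did not overlap. With each chromosome divided into 10 parts of equal length, the first and last parts had the lowest TLE shares on 9 of the 10 chromosomes. The exception was chromosome 8, with 44.3% in the first and 43.8% in the ninth part. The end of a chromosome was taken as the last base of any list, since the build is not named.

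Near the ends p300 intervals were denser and TLE intervals sparser. In the outermost 1 Mb there were 167.5 p300 intervals per Mb, against 113 beyond 40 Mb from an end, while TLE had 99.85 and 110. From 2 to 3 Mb the densities were 137 for p300 and 82.6 for TLE. The other 5 lists were denser at the ends too. H3K27ac had 123 domains per Mb in the outermost 1 Mb against 50.3 beyond 40 Mb, Lim1 113.5 against 56.1 peaks, and Otx2 171 against 127. Among intervals that met no H3K27ac domain, the TLE share was 39.1% (38.4 to 39.9) near the ends and 49.7% (49.5 to 49.9) inside. Among intervals that met none of the 5 other lists it was 36.1% (34.9 to 37.3) and 49.7% (49.3 to 50.03). Intervals of each list that met none of the other gave 29.2% (28.4 to 29.99) and 47.5% (47.2 to 47.7), while those that met the other list, which come nearly 1 to 1, gave 49.9% and 49.6%. With a −log10 q of at least 10 the TLE share was higher throughout, 50.1% (49.02 to 51.3) near the ends and 58.4% (58.1 to 58.7) inside, and 19 of 20 ends stayed below the inner part of their chromosome.

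**Figure D5:**
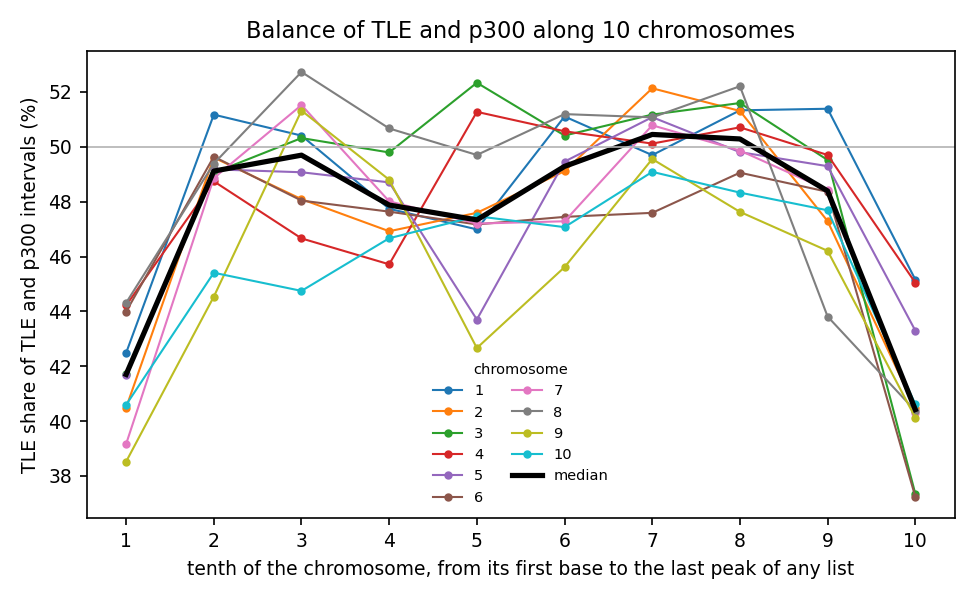
TLE share, which is TLE intervals as a percent of TLE and p300 intervals, in 10 parts of equal length on each of 10 chromosomes (thin lines), with the median over chromosomes (black). Each point is a single value from 1 library per antibody. The first parts lie between 38.5 and 44.3% and the last between 37.2 and 45.2%, below most inner parts.

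The balance was only weakly related to how many peaks of the other lists a window held. Over the 10889 windows, rho of the TLE share was 0.0267 with the number of Otx2 peaks, −0.0487 with Gsc, −0.0604 with H3K4me1, −0.115 with H3K27ac and −0.184 with Lim1. With the windows in 10 equal groups of rising TLE share, the mean number of Lim1 peaks was 7.29 to 7.74 in groups 1 to 7. It was 6.93, 5.72 and 4.67 in groups 8 to 10. The means of the other lists were lowest in group 10 too, with 4.10 for H3K27ac and 5.11 for H3K4me1, against 6.23 and 6.92 in group 1. Neighbouring windows resembled each other weakly, with a rho of 0.237 between TLE shares 0.1 Mb apart and 0.147 at 1 Mb. Counted over intervals, the TLE share was lower where Lim1 was met (40.7%, 40.3 to 41.2) than where it was not (49.03%, 48.8 to 49.2). It was also lower with H3K27ac (42.1%, 41.7 to 42.5) than without (48.96%, 48.8 to 49.2). With H3K4me1 it was 46.2% (45.9 to 46.5), and without 48.4% (48.2 to 48.6). The other lists had the opposite order. The TLE share was higher with Otx2 (48.5%, 48.3 to 48.8) than without (46.3%, 46.0 to 46.6). With Gsc it was 49.9% (49.2 to 50.6), and without 47.5% (47.3 to 47.7).

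Among 3379 windows with at least 30 intervals, the lowest TLE share was 16.3% (7.32 to 29.7), with 8 TLE and 41 p300 intervals, on chromosome 5 from 37100001 to 37200000. That window also held 32 Lim1, 25 Otx2 and 12 Gsc peaks, and 26 of its 41 p300 intervals met H3K27ac. The second, on chromosome 9 from 34200001 to 34300000, had 10 TLE and 49 p300 intervals. Their median p300 fold was 2.49, against 4.68 over all p300 intervals. The next was on chromosome 6 from 1300001 to 1400000, with 6 TLE and 28 p300 intervals, 1.3 Mb from the chromosome's start. The last of these windows were neighbours on chromosome 2, from 98800001 to 99000000, with 7 and 10 TLE and 31 and 44 p300 intervals. H3K27ac was met by 17 of the 31 and 31 of the 44 p300 intervals. It was met by 11 of the 49 on chromosome 9 and 5 of the 28 on chromosome 6, against 21.2% of all p300 intervals. Median p300 folds in these 5 windows were 2.49 to 3.84, below the median of the list. Median TLE folds were 6.57 in the window on chromosome 6 and 3.52 to 3.76 in the others, against 6.02 over all TLE intervals. The windows were picked as the lowest of 3379, and the binomial interval given does not allow for that choice.

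At the other extreme, the highest TLE share was 71.9% (53.3 to 86.3), with 23 TLE and 9 p300 intervals, on chromosome 3 from 70600001 to 70700000. This window was picked as the highest of 3379, and the binomial interval does not allow for that choice. The next were on chromosome 1 from 136500001 to 136600000, with 26 TLE and 11 p300 intervals, and from 58700001 to 58800000, with 21 and 9. The others were on chromosome 2 from 136500001 to 136600000, with 21 and 9, and on chromosome 9 from 25700001 to 25800000, with 23 and 10. At most 3 of the p300 intervals and 3 of the TLE intervals in any of these 5 windows met H3K27ac. All 5 lay over 25 Mb from an end, as did 4 of the 5 windows with the lowest TLE share.

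The windows with most intervals held both proteins. On chromosome 1 from 178500001 to 178600000 lay 52 TLE and 79 p300 intervals, 45 of each meeting the other list, with a median p300 fold of 2.17. On chromosome 1 from 160200001 to 160300000 there were 54 TLE and 51 p300 intervals, and on chromosome 3 from 131500001 to 131600000 there were 51 and 50. In the last of these the intervals were wide, with medians of 341 bp for TLE and 275.5 bp for p300.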

How the data were processed

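Chromatin immunoprecipitated with antibodies to TLE or p300 was sequenced from whole embryos, and peaks were called on each library. The submitters' processing notes name MACS2 and deepTools without versions. The sources used here give no aligner, genome build or read filter. Each line deposited by the authors holds a fold enrichment (a ratio to local background), a −log10 p, a −log10 q, a score and the offset of the summit. The score deposited by the authors was not used. The lowest −log10 q was 1.31 for TLE and 1.30 for p300, so both lists reach down to about the same q.

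Summits were taken as interval start plus offset and coordinates count from 1. Repeated intervals were reduced to 1, represented by the summit of highest fold. Intervals met when they shared at least 1 bp, and a summit met another list when its base lay inside an interval of it. Python 3.11.15, numpy 2.4.6, pandas 2.3.3, scipy 1.17.1 and matplotlib 3.10.9 were used. The steps for nearest summits and for overlap were checked on simulated data, and those for windows and pair distances were run on it. Later steps, such as shared places and runs, were not tested in this way. Windows of 100 kb were assigned by interval midpoint. The members and the analyses were chosen with earlier results of these data known. Regions named are the 5 windows with highest and the 5 with lowest TLE share among those with at least 30 intervals, the 3 densest windows, the 3 intervals with most summits in each list, the 5 pairs within 100 bp whose lower fold percentile was highest, the strongest summit of each list, and the strongest in each without the other list within 10 kb. The gene table at hand uses the assembly UCB_Xtro_10.0, whose last genes lie 10.6 to 29.6 Mb past the last peaks on the 10 chromosomes, so no place was assigned to a gene.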

Additional observations from a re-analysis of the deposited data

How the results depend on the processing

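No paired analysis was possible because there is 1 library per antibody. All 34 alternatives listed with the design, and 16 of the 18 added after the values were seen, moved the value beyond its 95% interval or, for window measures, in the printed digits. The share of TLE summits with p300 within 100 bp (47.0%) was 39.6% within 50 bp, 55.6% within 250 bp, 59.8% within 500 bp, 43.0% with 1 summit per interval, 31.8% with a −log10 q of at least 10 in both lists and 32.2% with both lists limited to the 50000 summits of highest fold. The share of p300 summits with TLE (44.1%) was 36.6, 53.1, 59.1, 39.2, 44.8 and 32.5% in that order. The side with the higher share turned at the limit on q, where the lists keep 83670 TLE and 60214 p300 summits, and in the lists of 50000 the shares were nearly alike. The shares count much the same places from both sides, so the higher share belongs to the shorter list. Intervals with at least 2 summits (17.4% TLE, 14.1% p300) made up 20.4 and 17.3% at the limit on q and 58.2 and 71.8% among those of 300 to 600 bp, where p300 was the higher. Median widths (170 and 131 bp) were 262 and 225 bp at the limit on q and 146 and 119 bp with 1 summit. Median spacings (2958 and 2848 bp) were 4571 and 4411 bp with 1 summit per interval, 5533 and 8795 bp at the limit on q, and 12583 and 13963 bp in the lists of 50000, so the order of TLE and p300 turned in the last 2. The Spearman correlation of TLE and p300 intervals over windows (0.754) was 0.685 at 50 kb, 0.801 at 500 kb, 0.764 for summits and 0.634 at the limit on q. The interquartile range of the TLE share (13.5 percentage points) was 13.8, 8.45, 14.4 and 16.7 in that order.

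Of the added alternatives, the TLE share near the ends (38.3%, against 48.5% inside) was 50.1% (58.4%) at the limit on q, 39.1% (49.7%) without H3K27ac and 29.2% (47.5%) for unshared intervals. The p300 share with H3K27ac at 250 to 500 bp (42.3%) was 35.1% with 1 summit per interval, 45.8% at the limit on q and 35.5% for unshared intervals, and that of TLE (14.2%) was 11.9% at the limit on q. Shared places that either interval ties to H3K27ac had more p300 summits in 33.4% of cases, against 31.7% and 32.4% when tied by the TLE or p300 summit. Those without H3K27ac had more TLE summits in 16.5%, against 15.8% and 15.9%. Of the 1000 p300 summits of highest fold, 33.1% had TLE within 100 bp, against 54.7% ranked by −log10 q, and for TLE with p300 91.8% and 98.1%. Apart from the part of list length in which side has the higher share, the cause of these changes was not tested.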

Other observations

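Of the 6 intervals named for most summits of a protein, 2 met no interval of the other list. Over all intervals with 3 or more summits, 82.7% of TLE and 86.6% of p300 intervals met the other list. Over all intervals of any number of summits, 50.8% and 47.0% did. The p300 interval with most summits, 16 over 2214 bp on chromosome 5 from 19609989 to 19612202, met no TLE interval, though peaks of Otx2, Lim1, H3K4me1 and H3K27ac lay there. The p300 interval with 10 summits on chromosome 10 from 3713857 to 3715830 met no TLE interval either, while that with 11 summits on chromosome 8 from 117250290 to 117251845 met 3, with 5 TLE summits. The TLE intervals with most summits all met p300. They held 15 summits on chromosome 5 from 29440770 to 29442993 (with 9 p300 summits), 15 on chromosome 6 from 53954451 to 53956413 (with 10) and 12 on chromosome 4 from 3340607 to 3342414 (with 13). The best folds in these 6 intervals were 4.81 to 7.56.

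The longest unbroken run of unshared p300 intervals held 51 of them in 70924 bp on chromosome 3 from 4638658 to 4709581, and the next 44 in 94460 bp on chromosome 9 from 34169247 to 34263706, which overlaps a window of low TLE share named above. The longest run for TLE held 24 in 236451 bp on chromosome 7 from 93824737 to 94061187. These runs were chosen after the values were seen.

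The strongest p300 summit on the chromosomes (fold 40.2) lay at 22040550 on chromosome 6, 502 bp from the nearest TLE summit, and was covered by an Otx2 peak and by no other list. The strongest p300 summit with no TLE summit within 10 kb (fold 37.5) lay at 64813553 on chromosome 1, 29357 bp from TLE, also with Otx2 alone. The strongest TLE summit with no p300 summit within 10 kb (fold 28.3) lay at 133063831 on chromosome 6, 25989 bp from p300, and no other list covered it. With a −log10 q of at least 10, 3100 TLE summits (1.87% of the list) and 3796 p300 summits (2.11%) had none of the other list within 10 kb. Otx2 covered 54.8% and 44.1% of them, Lim1 0.871% and 10.3%, and no other list covered 39.5% and 48.1%. At the same limit on q, 52448 TLE and 36528 p300 summits had the other list within 100 bp. Otx2 covered 89.1% and 95.6% of those, Lim1 20.5% and 33.2%, and no other list covered 6.95% and 2.05%.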
